A study of Mus musculus with 10 samples.

Results

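Of the 21195 m6A peaks listed for hypothalamic neural progenitor cells, 1459 (6.88%) were at most 5000 bases long and shared at least 1 base with another such peak on the opposite strand of the same chromosome. They made up 8.78% of the 16624 peaks of that length, with 730 on the plus and 729 on the minus strand, and formed 771 plus and minus pairs in 688 loci. The cells came from the hypothalamus of E14.5 mouse embryos homozygous for a floxed Mettl14 allele (Mettl14f/f) and grew with FGF2 and EGF at 20 ng/ml each. Mettl14 knockout cells received lenti-EGFP-Cre and control cells lenti-EGFP, so all cells carried the floxed allele and the same EGFP vector type, and EGFP-positive cells were sorted after 72 hours. Polyadenylated RNA was broken to about 80 nucleotides and m6A-bearing fragments were immunoprecipitated (IP), giving 4 knockout and 4 control IP libraries, with 1 knockout and 1 control input library. The peak table holds a single IP and a single input read count per whole peak, not per shared stretch, with no library or genotype named, so knockout and control could not be compared and no value below has a replicate error.

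N6-methyladenosine (m6A) is written on nascent RNA by the METTL3 and METTL14 complex, mostly within the DRACH sequence context whose common core is GGAC, and mammalian transcripts carry much of it near stop codons and in last exons. Genes that point at each other can share their transcribed 3' ends, a convergent layout, and antisense RNAs can run through or start beside a coding gene, so a single stretch of DNA can give RNA from both strands. A peak's strand is then the only thing that assigns it to one of the RNAs. The library kit in the labels is the NEBNext Ultra II RNA kit, and no source used here says whether strand was kept in the libraries or used in counting. Without strand, reads of a gene and its opposite-strand partner cannot be told apart, and this applies to every comparison of strands below.

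Sequence at places where both strands had a peak is shown for 3 promoters that lay wholly inside such an overlap, because there the RNA of one strand would cover the start site of the other gene. The windows run from 250 bases before to 50 bases after the annotated start, 5' to 3' on the gene's strand, from RefSeq on GRCm38.p6, and capitals mark GGAC and its reverse complement GTCC. The Zbtb7b window is chr3:89393329-89393628 (minus), the Rsbn1l window chr5:20951773-20952072 (minus) and the Irx3 window chr8:91801605-91801904 (minus).
Zbtb7b: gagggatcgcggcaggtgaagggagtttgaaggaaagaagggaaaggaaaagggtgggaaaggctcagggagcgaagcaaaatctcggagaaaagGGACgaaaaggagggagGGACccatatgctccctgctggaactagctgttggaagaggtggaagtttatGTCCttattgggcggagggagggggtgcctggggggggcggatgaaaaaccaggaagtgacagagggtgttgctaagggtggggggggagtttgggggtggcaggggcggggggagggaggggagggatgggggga
Rsbn1l: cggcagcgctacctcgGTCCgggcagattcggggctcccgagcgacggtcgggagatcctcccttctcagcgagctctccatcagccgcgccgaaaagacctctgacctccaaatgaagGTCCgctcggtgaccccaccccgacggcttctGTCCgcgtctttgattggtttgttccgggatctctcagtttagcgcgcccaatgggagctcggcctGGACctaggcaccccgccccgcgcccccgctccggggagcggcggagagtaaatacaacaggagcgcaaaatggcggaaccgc
Irx3: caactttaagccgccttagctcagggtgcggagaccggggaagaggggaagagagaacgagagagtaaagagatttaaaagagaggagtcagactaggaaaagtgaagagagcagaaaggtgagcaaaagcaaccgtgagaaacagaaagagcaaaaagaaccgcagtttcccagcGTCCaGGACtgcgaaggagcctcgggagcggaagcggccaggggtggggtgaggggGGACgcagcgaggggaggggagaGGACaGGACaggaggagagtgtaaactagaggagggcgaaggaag

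In total 9 promoter windows lay wholly inside a pair's overlap, and 7 of them held GGAC and 7 held GTCC. Of all 32851 RefSeq promoter windows of 300 bases, 65.6% held GGAC and 66.1% held GTCC, so these letters are common at promoters of any kind. At the Zbtb7b promoter, Zbtb7b being a zinc-finger transcription factor of T cell lineage choice, the lncRNA Gm15417 on the plus strand had 64 IP and 8 input reads and the Zbtb7b strand 1492 IP and 1053 input reads. At Rsbn1l the lncRNA A630072M18Rik had 431 IP and 90 input reads, against 1769 IP and 520 input reads on the Rsbn1l strand. At Irx3, an Iroquois homeobox gene of neural patterning, the plus strand, which had no gene name, had 1 peak of 1886 bases with 2226 IP and 675 input reads. On the Irx3 strand it met a peak of 850 bases with 1234 IP and 385 input reads, which covers the window, and another of 1050 bases with 3780 IP and 818 input reads, which does not. All these are counts of whole peaks, which reach beyond the window and differ in length. By them the lncRNA strand had fewer reads at Zbtb7b and Rsbn1l, and at Irx3 the order depended on which Irx3 peak was taken.

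A few members also held microRNA genes. Mir671 lay on the plus strand inside the overlap at Chpf2, a chondroitin polymerizing factor gene, where the unnamed minus strand had 762 IP and 679 input reads and the Chpf2 strand 10323 IP and 2738 input reads. Mir9-2, whose product miR-9 acts in neural progenitor differentiation, lay in the plus-strand peak of the lncRNA C130071C03Rik outside its overlap. That peak had 1790 IP and 769 input reads. The mature RNAs are given from RefSeq on GRCm38.p6 with the seed, bases 2 to 8, in capitals, and no seed is shared between them.
mmu-miR-671-5p: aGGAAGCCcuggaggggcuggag
mmu-miR-671-3p: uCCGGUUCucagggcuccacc
mmu-miR-9-5p: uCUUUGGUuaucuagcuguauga

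The members looked much like other short peaks in size and depth. They had a median length of 625 bases, 822 IP reads and 416 input reads per peak, against 525 bases, 786 IP reads and 433 input reads for the 15165 other peaks of at most 5000 bases. Enrichment in the authors' deposited table, as log2 IP over input, had a median of 2.87 for members (5th to 95th percentile 1.43 to 4.54) and 2.98 for the other short peaks (1.57 to 4.70). All 1459 members had an adjusted p under 0.05 there, but so did 100% of all peaks to 3 significant digits, so that call separates nothing. More IP than input reads, without correction for depth, were found in 1345 members (92.2%), against a background of 88.6% of all peaks. A deposited log2 fold change of at least 2 was found in 1239 members (84.9%), against 87.2% of all peaks. The deposited log2 fold change ran above the plain log2 ratio of the pooled reads by a median of 1.64 over members (5th to 95th percentile 0.60 to 2.73, 0.5 added to each count). The 2 measures can therefore order the strands of a pair differently, as at Gnas and Chtf8 below. For most single pairs only the counts are given. In megareads (M), the members together held 4.94 M IP and 2.06 M input reads, of 72.3 M IP and 26.6 M input reads in all peaks.

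Most loci were simple. A single opposite-strand partner was found for 1391 members, while 57 had 2, 7 had 3 and 4 had 4 partners, and the largest locus held 5 peaks. The shared stretch ran from 1 to 3422 bases with a median of 325, and in 382 pairs (49.5%) the shorter peak lay wholly within the other. The longest shared stretches were at Ppp2r3c on chromosome 12 (chr12:55299577-55302998, 3422 bases), at Cep295 on chromosome 9 (chr9:15332016-15335345, 3330 bases) and at Cep250 on chromosome 2 (chr2:155976433-155979563, 3131 bases). In each of these only one strand had a named gene. Chromosome 7 held the most pairs, 62, chromosome X held 10 and the mitochondrial genome 1. The longest members were 4956, 4975 and 4980 bases, and the shortest peaks left out by the length limit that also met an opposite-strand peak of up to 10000 bases were 5008, 5051 and 5077 bases. The members just inside the limit lay at Gcnt2, at Wipf3 and Scrn1, and at Cenpu and Primpol, and had 358, 10147 and 1896 IP and 79, 2476 and 843 input reads. The peaks just outside had 2127, 222 and 11246 IP and 1476, 295 and 4582 input reads.

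By the ends of the peaks alone, 236 pairs (30.6%) met with their 3' ends, 153 (19.8%) with their 5' ends, 378 (49.0%) had one peak inside the other and 4 had identical ends. A gene name was then given to a peak where the span of a RefSeq coding or lncRNA gene on the peak's own strand covered at least 50% of the shorter of peak and gene. A name says where a peak lies and does not show that its RNA came from that gene. By these names, 240 pairs (31.1%) lay in convergent genes, 38 (4.93%) in divergent genes and 55 (7.13%) in genes of which one lay inside the other. In 324 pairs (42.0%) only one strand had a name, in 108 (14.01%) neither had, and in 6 several genes fitted. The convergent share was 22.8% when genes whose strand was read from their own peaks, 1697 coding genes missing from the promoter table, were left unnamed. Of the 108 pairs with no name, 95 touched a gene whose strand is not in the table used here.

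The 333 pairs named on both strands belonged to 267 different gene pairs, of which 189 were convergent, 36 divergent and 42 nested. Both genes were protein-coding in 228 pairs, and a coding gene faced a lncRNA in 105. Coding pairs were mostly convergent (195 of 228), whereas the coding and lncRNA pairs were spread over convergent (45), divergent (20) and nested (40) layouts. In 185 of the 189 convergent gene pairs the annotated spans themselves overlapped, by a median of 1157 bases, and in 4 they lay apart. The middle of the shared stretch lay within 1000 bases of both annotated 3' ends in 113 of the 240 convergent pairs (47.1%), at a median distance of 562 bases from a 3' end. The naming rule favours both overlapping spans and a place near the 3' ends, because each of the overlapping peaks had to lie largely on its own gene's span. No background was computed for these values.

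The reads of the strands were unequal in most pairs. The strand with more IP reads had a median of 2226 IP and 870 input reads, and the other strand 332 IP and 169 input reads. The median fold between the strands was 3.77 in IP reads (5th to 95th percentile 1.07 to 96.5, 0.5 added) and 3.89 in input reads. IP reads were at least 10-fold higher on one strand in 231 pairs (30.0%), against a background of 25.1% among 6903 pairs of neighbouring short peaks on the same strand with the same gene ID. The strands lay within 2-fold in 226 pairs (29.3%), against 30.0% of the neighbours. Neither strand was favoured: the plus strand had more IP reads in 398 pairs, the minus strand in 371, and 2 were tied.

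**Figure D1:**
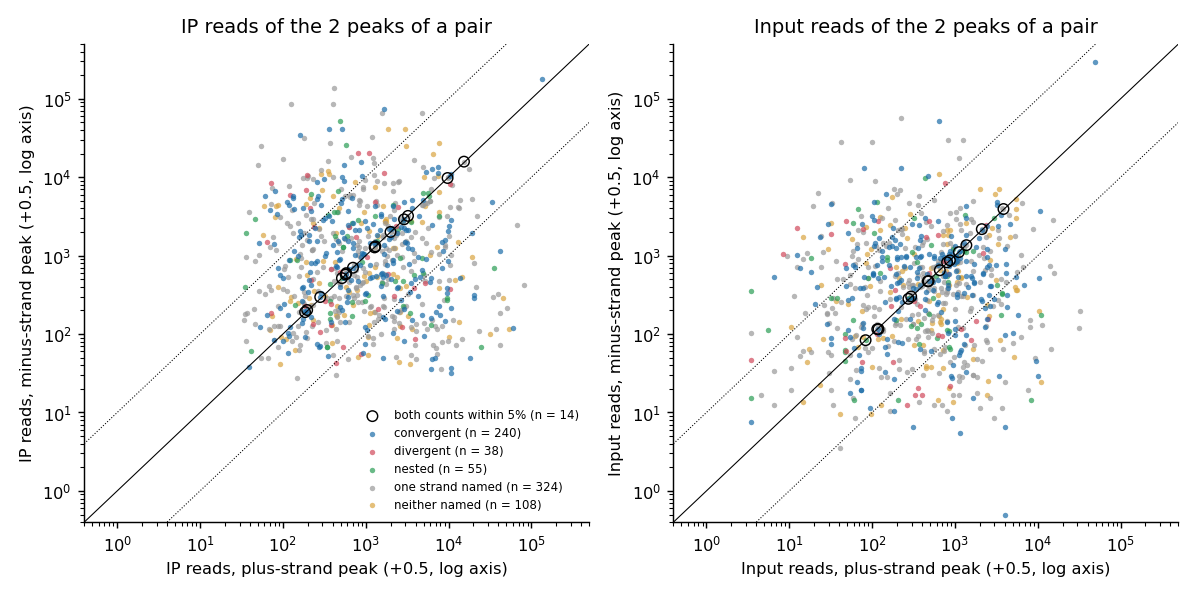
Reads of the plus-strand peak (x) and the minus-strand peak (y) of each pair, IP at the left and input at the right, on log axes with 0.5 added. Colours give the gene layout, and the 6 pairs that several genes fitted are not drawn. The solid line marks equal reads, the dotted lines a 10-fold difference, and the circles the 14 pairs whose IP and input counts both lay within 5% on the strands. Points spread to both sides of the line in IP and in input.

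The strand with more IP reads also had more input reads in 686 pairs (89.0%), and across the 771 pairs the log2 fold between the strands in IP and in input had a Spearman correlation of 0.93. Same-strand neighbours had 0.92, and the pairs share the same pooled libraries, so this is a description of the peaks. After division by input, the strands were closer. In the authors' deposited table the log2 fold change differed between strands by a median of 0.70 in absolute size, against 0.76 between same-strand neighbours, and by at least 1 in 298 pairs (38.7%), against 39.9% of neighbours. The strand with more IP reads, an ordering that favours a high IP ratio, was higher in that column by a median of 0.12, against 0.38 among neighbours, and with strands ordered by input reads instead the median was -0.08. The ratio of the IP-to-input ratios of the strands, in which library depth cancels, had an exact 95% interval without 1 in 538 pairs (69.8%), against 71.9% of same-strand neighbours. These intervals cover counting error only, since reads are not independent molecules and no replicate error is known.

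The likeness of the strands in deposited enrichment varied with how much of their span they shared. Across all pairs the Spearman correlation of the deposited log2 fold change between the strands was 0.21. It was 0.06 in the 134 pairs that shared at most 10% of their joint span, and 0.50 in the 76 pairs that shared over 90%. The median absolute difference in the authors' deposited table was 0.48 in the pairs sharing over 90% and 0.95 in those sharing at most 10%. Of the 76 pairs that shared over 90%, 8 had IP and input counts both within 5% on the strands. The class was not measured without them. The median IP fold was 3.22 in the pairs that shared over 90% and 5.86 in those that shared at most 10%, with 3.76, 3, 4.66 and 4.30 in the classes from low to high sharing between them, which is no steady trend. No test was made across these classes.

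**Figure D2:**
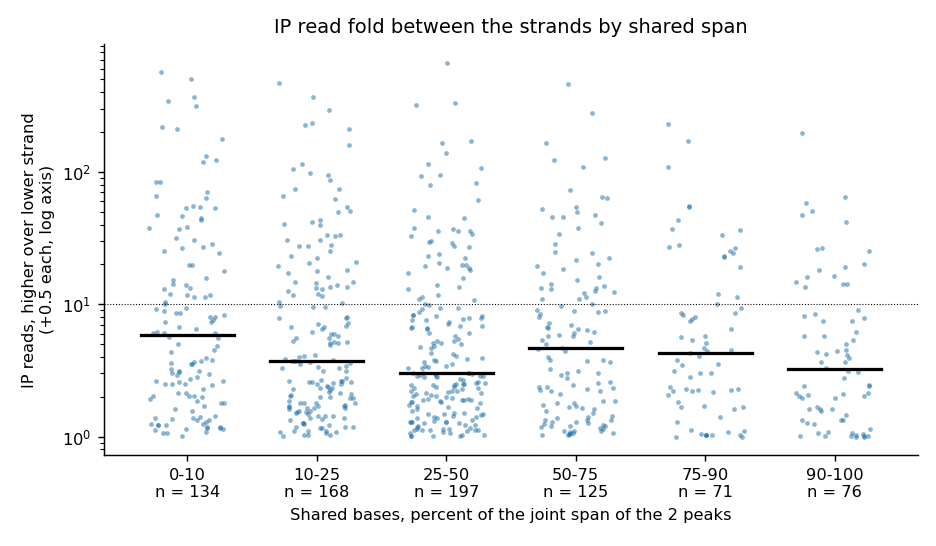
IP reads of the higher over the lower strand (0.5 added to each, log axis) for each pair, by the percent of the joint span of its peaks that both cover. Black bars are medians, from 5.86 in the lowest class to 3.22 in the highest with 3 in the 25 to 50% class, and the dotted line marks 10-fold.

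The promoter, microRNA, near-equal and identical-interval loci, and Notch1 and Olig1, were chosen after their values were seen. In 14 pairs (1.82%) the IP and the input count each lay within 5% on both strands, against 0.507% of same-strand neighbours. For Pus3, a tRNA pseudouridine synthase gene, and Hyls1, a centriole gene, at chr9:35566308-35567229, both strands were listed at exactly 2902 IP and 870 input reads. BC049715 and Smco3 at chr6:136830477-136831825 were both listed at 516 IP and 83 input reads. At Nr1i3, the nuclear receptor CAR (chr1:171217763-171218410), the unnamed minus strand had 574 IP and 115 input reads, against 573 IP and 115 input reads on the Nr1i3 strand. At Hddc3 (chr7:80345356-80346566) the unnamed strand had 1311 IP and 470 input reads and the Hddc3 strand 1310 IP and 470 input reads.

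Less close but within the 5% limit, and with larger counts, was Eri2, an exoribonuclease gene, where the unnamed plus strand had 9743 IP and 2111 input reads and the Eri2 strand 9770 IP and 2177 input reads. The other near-equal pairs lay at Uqcrc2 and Pdzd9, Cstf2 and Nox1, Pptc7 and Rad9b, Scyl3 and BC055324, and, with one name, at Tssc4, Usp38, Chtf8 and Gse1, and 1 had no name. In the authors' deposited table the strands of these 14 pairs differed by at most 0.27 in log2 fold change, with a median of 0.03. Of the 14, 8 shared over 90% of their joint span, but the Chtf8 pair shared 31.4% and still had 3243 IP and 1375 input reads on the unnamed strand, against 3213 IP and 1359 input reads on the Chtf8 strand. Whether the same fragments were counted on both strands at these loci was not tested.

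The 4 pairs with identical ends on both strands did not have equal counts. At chr17:29704199-29704598, the minus strand, named for Ccdc167, had 1145 IP and 568 input reads, against 134 IP and 103 input reads on the plus strand, named for the cap methyltransferase gene Cmtr1. Further along the same genes, at chr17:29705174-29705448, the order turned, with 618 IP and 231 input reads on the Cmtr1 strand and 369 IP and 254 input reads on the Ccdc167 strand. At chr1:195037151-195037400 the unnamed minus strand had 1584 IP and 564 input reads, and the strand of the lncRNA A330023F24Rik 193 IP and 53 input reads. At Spa17 (chr9:37613487-37613722) the unnamed strand had 178 IP and 190 input reads and the Spa17 strand 238 IP and 130 input reads. The listed counts of the strands thus differed at these 4 places although the intervals were the same.

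Among convergent genes, the 12 pairs with the most IP reads on their weaker strand are described next, so that high IP reads on both strands were fixed by the choice. The IP-to-input ratio of the pooled reads was not, and it was below 1 for ND6 and Trnt1. At Stk11, the gene of the kinase LKB1 upstream of AMPK, and Cbarp, a regulator of calcium channel beta subunits, the gene spans overlapped by 246 bases and the peaks shared 227 (chr10:80130451-80130677). The Cbarp strand had 12552 IP and 2144 input reads, against 6331 IP and 2140 input reads on the Stk11 strand. Input was the same to within 4 reads, and the IP-to-input ratio was 1.98 times as high for Cbarp (exact 95% interval 1.85 to 2.12).

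At Snn, the stannin gene, and Txndc11, a thioredoxin-domain gene (chr16:11074911-11074985), the Txndc11 strand had 5155 IP and 2395 input reads and the Snn strand 3603 IP and 3279 input reads. Here the strand with more IP had less input, and the ratio was 1.96 times as high on it (1.83 to 2.10). At Pkmyt1, the gene of a kinase that restrains CDK1, and Paqr4 (chr17:23736186-23736735), the Pkmyt1 strand had 33137 IP and 10612 input reads, against 4866 IP and 3704 input reads on the Paqr4 strand, a ratio 2.38 times as high (2.26 to 2.49). At Ak3, a mitochondrial adenylate kinase, and Cdc37l1, an HSP90 co-chaperone relative (chr19:29024943-29026286), the Ak3 strand had 11608 IP and 1833 input reads and the Cdc37l1 strand 5396 IP and 1343 input reads, with a ratio of 1.58 (1.46 to 1.70).

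In other pairs of this group the strands were close. At Fam151a and the acyl-CoA thioesterase gene Acot11 (chr4:106747030-106748292), the Acot11 strand had 11118 IP and 2354 input reads, against 10607 IP and 2473 input reads on the Fam151a strand, a ratio of 1.10 (1.03 to 1.17). At Far2, a fatty acyl-CoA reductase gene, and Ergic2 (chr6:148181021-148182095), the Ergic2 strand had 10486 IP and 3277 input reads and the Far2 strand 10368 IP and 3627 input reads, a ratio of 1.12 (1.06 to 1.18). At Ercc2, the XPD helicase of transcription factor TFIIH, and the kinesin light chain gene Klc3 (chr7:19394711-19395685), the Klc3 strand had 5060 IP and 1452 input reads and the Ercc2 strand 4931 IP and 1298 input reads. In these 3 pairs IP and input were thus both close to equal on the strands.

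The splicing factor gene Hnrnph3 had 2 minus-strand peaks, of 11390 and 13659 IP reads and 4371 and 4769 input reads, that both met the same Rufy2 peak of 7382 IP and 3259 input reads. At Rusf1 and the sodium and glucose cotransporter gene Slc5a2, the Rusf1 strand had 4068 IP and 1324 input reads and the Slc5a2 strand 3672 IP and 995 input reads. At Trnt1, the CCA-adding enzyme of tRNA, and Crbn, the cereblon substrate receptor (chr6:106780801-106782086), the Trnt1 strand had 4417 IP and 4644 input reads and the Crbn strand 3213 IP and 2495 input reads. The mitochondrial pair ND5 and ND6, complex I subunits on opposite strands, shared 14 bases. The ND6 strand had 179623 IP and 294599 input reads and the ND5 strand 135309 IP and 48894 input reads, so that ND6 had more reads and 0.22 times the IP-to-input ratio of ND5 (0.218 to 0.223).

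**Figure D3:**
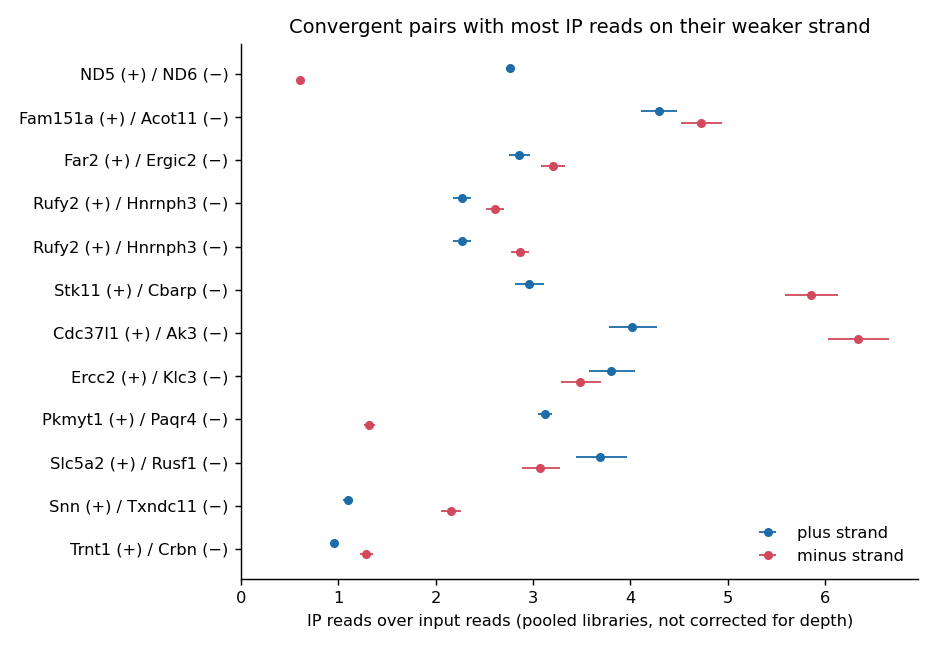
IP over input reads (pooled libraries, no depth correction) on the plus and the minus strand of the 12 convergent pairs with the most IP reads on their weaker strand. Points are ratios and bars exact 95% intervals of counting error. On this linear axis the plain difference between the strands is widest at Stk11 and Cbarp, followed by Cdc37l1 and Ak3, ND5 and ND6, and Pkmyt1 and Paqr4; as a ratio of the strands it is widest at ND5 and ND6, then at Pkmyt1 and Paqr4.

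The largest difference in enrichment between convergent genes named by rule was at Rnf215 and Ccdc157, whose shared 43 bases lie at chr11:4141123-4141165. The Rnf215 strand had 1517 IP and 1285 input reads and the Ccdc157 strand 415 IP and 75 input reads. In the authors' deposited table their log2 fold changes were 1.77 and 4.80. Other large differences lay at Mfsd14a, Erc1 and at a pair of unnamed loci on chromosome 16, where the ratio on one strand was 6.86 to 8.20 times that on the other in pooled reads. At Erc1, a presynaptic active zone scaffold gene (chr6:119571871-119572788), the unnamed plus strand had 694 IP and 86 input reads, against 315 IP and 317 input reads on the Erc1 strand. The smallest differences lay at Gse1, Dpcd and Fbxw4, Tmem175, Cdc42se1 and Nr1i3. At Dpcd and Fbxw4 the Dpcd strand had 541 IP and 304 input reads and the Fbxw4 strand 511 IP and 289 input reads.

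Pairs in divergent genes were few and had a median IP fold between strands of 6.72, against 3.31 in convergent and 4.03 in nested genes. At least 10-fold more IP reads on one strand were found in 14 of 38 divergent, 67 of 240 convergent and 14 of 55 nested pairs. The layouts also differed in gene type, with a lncRNA in 20 divergent, 45 convergent and 40 nested pairs. In the 20 divergent lncRNA pairs, the coding strand had at least 10-fold more IP reads in 10 and the lncRNA strand in 1. The same counts were 10 and 7 of the 45 convergent, and 7 and 4 of the 40 nested lncRNA pairs. Whether layout or gene type goes with the wider fold was not tested. The divergent pair with the most IP reads on its weaker strand lay at Acin1, an RNA-binding apoptosis factor gene, and 1700123O20Rik (chr14:54686841-54686929). It had 10442 IP and 2394 input reads on the 1700123O20Rik strand and 8129 IP and 2478 input reads on the Acin1 strand. At the DNA ligase gene Lig1 and Zswim9 (chr7:13277283-13278696), the Zswim9 strand had 4143 IP and 1088 input reads and the Lig1 strand 2464 IP and 2158 input reads, a ratio 3.33 times as high for Zswim9 (3.05 to 3.65). At Cep63, a centrosome gene, and Anapc13, a subunit of the anaphase-promoting complex, the Cep63 strand had 2384 IP and 846 input reads and the Anapc13 strand 2311 IP and 733 input reads. At Ptges3l and Rundc1, the Ptges3l strand had 11162 IP and 1829 input reads and the Rundc1 strand 1686 IP and 617 input reads.

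Nested genes included Haspin, a histone H3 kinase gene that sits inside Itgae, the integrin alpha E gene, on the other strand (chr11:73135485-73137834). The Itgae strand had 5868 IP and 1290 input reads and the Haspin strand 5696 IP and 1135 input reads, and in the authors' deposited table their log2 fold changes were 3.96 and 4.02. Both the larger gene and the gene inside it were thus listed with like counts, in peaks that shared 2350 bases. At Tor2a and Ttc16 (chr2:32761745-32762244) the Ttc16 strand had 6230 IP and 3287 input reads and the Tor2a strand 5684 IP and 1318 input reads, so that the IP-to-input ratio of Ttc16 was 0.44 times that of Tor2a (0.408 to 0.473).

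A coding gene faced a lncRNA in 105 pairs. The lncRNA strand had a median of 431 IP and 152 input reads, and the coding strand 1050 IP and 483 input reads. The lncRNA strand had more IP reads in 38 pairs (36.2%). In the authors' deposited table, the log2 fold change had a median of 3.27 on the lncRNA strand and 2.95 on the coding strand. Their difference, lncRNA minus coding, had a median of 0.45 and was above 0 in 66 pairs (62.9%). Fewer reads stood behind the lncRNA values: in the 72 pairs with at least 50 IP and 50 input reads on both strands the median difference was 0.19, above 0 in 41. With 1 pair per peak it was 0.30, above 0 in 56 of 90. The median difference was 0.28 in convergent (n = 45), 0.46 in divergent (n = 20) and 0.52 in nested pairs (n = 40).

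**Figure D4:**
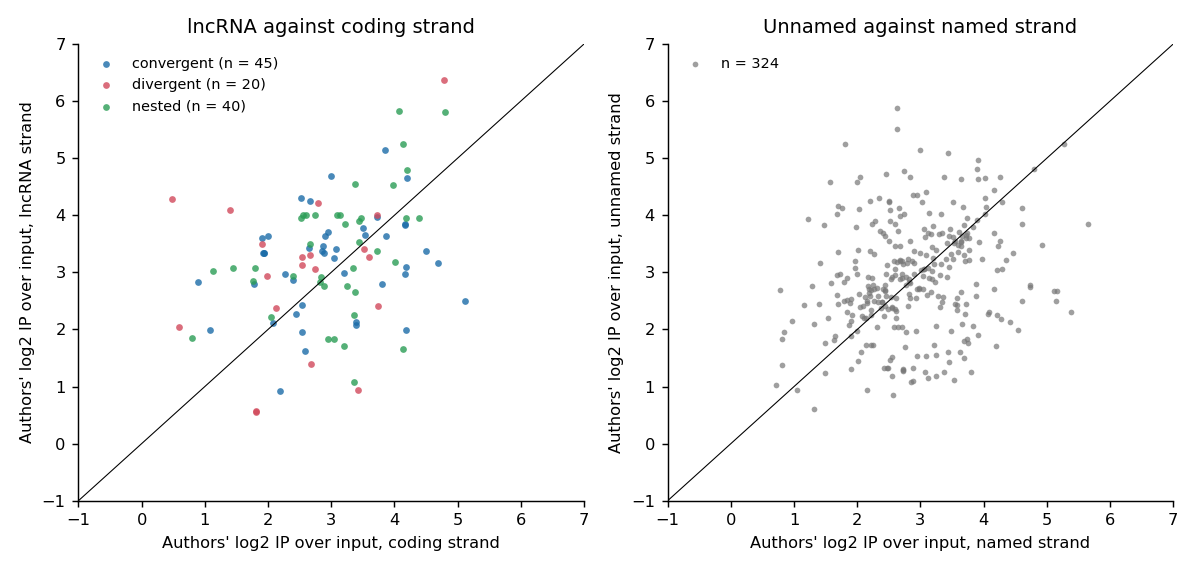
The authors' deposited log2 fold change, IP over input, of the lncRNA strand against the coding strand (left, 105 pairs, coloured by gene layout) and of the unnamed against the named strand (right, 324 pairs). The line marks equal values. At the left 66 of 105 points lie above it, and at the right 175 of 324.

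The lncRNA pairs named here beyond those of the fixed rule were chosen after their values were seen. Gm17029 had 41922 IP and 10219 input reads where it met Pex14, a peroxisomal import gene (chr4:148961535-148961659), which had 1161 IP and 522 input reads. A730081D07Rik had 41467 IP and 13055 input reads in 1 peak that met 2 peaks of Gcnt2, a glycosyltransferase gene, of 520 and 358 IP and 224 and 79 input reads. A430027H14Rik, inside the potassium channel gene Kcnk2, had 35438 IP and 10924 input reads in 1 pair, against 703 IP and 177 input reads on the Kcnk2 strand. In a second pair there the order was the other, with 46 IP and 18 input reads on the A430027H14Rik strand and 2965 IP and 933 input reads on the Kcnk2 strand. The coding strand also had more reads at Particl and Mat2a, a methionine adenosyltransferase gene whose own transcript is an m6A target. Particl had 804 IP and 765 input reads, against 20115 IP and 8346 input reads on the Mat2a strand, and the Mat2a ratio was 2.29 times as high (2.07 to 2.54).

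Among the lncRNA pairs taken by rule, Gm9917 at the tumour suppressor candidate gene Tusc2 (chr9:107564678-107566027) had 6233 IP and 1145 input reads, against 4868 IP and 1657 input reads on the Tusc2 strand. Gm16617 inside Arhgef40 had 3245 IP and 2986 input reads, against 7641 IP and 3000 input reads. The same Gm16617 peak also met another Arhgef40 peak, in a pair not taken by the rule, of 1300 IP and 324 input reads. 4930579G18Rik had 3530 IP and 1360 input reads and the Acin1 strand 2712 IP and 1128 input reads. Gm45631 had 2459 IP and 589 input reads, and the strand of Clcn4, a chloride and proton exchanger gene, 2179 IP and 545 input reads. Input was thus nearly the same on both strands at Clcn4 and in the Arhgef40 pair taken by rule. IP was close at Clcn4 and lower on the lncRNA strand in that Arhgef40 pair. Against the other Arhgef40 peak the lncRNA strand had more IP and more input reads.

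In the 324 pairs with a name on one strand, 302 of the named genes were protein-coding. The unnamed strand had a median of 676 IP and 283.5 input reads, and the named strand 1210.5 IP and 465 input reads. It nevertheless had more IP reads than the named strand in 140 pairs (43.2%), at least 10 times more in 28, and at least 10 times fewer in 72. In the authors' deposited table its log2 fold change had a median of 2.86, against 2.82 on the named strand, with a median difference of 0.08. The shared stretch lay in the last 10% of the named gene in 140 pairs (43.2%), in the first 10% in 51 (15.7%) and between them in 133 (41.0%). These shares were not computed for other short peaks, so they do not set these pairs apart. In 278 of the 324 pairs no RefSeq gene of unknown strand touched the shared stretch. In those pairs the unnamed strand had a median of 691 IP and 293 input reads. The named strand had 1306 IP and 519 input reads there. Genes of known strand that touched the stretch but fell short of the naming rule were not counted, so other genes may lie there. When any overlap gave a name, the share of all pairs with a single named strand was 38.8%, against 42.0% by the naming rule.

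The strongest unnamed strand lay opposite the 3' part of Mfsd9 (chr1:40772238-40773334), with 82386 IP and 31698 input reads, against 418 IP and 120 input reads on the Mfsd9 strand. A gene without a strand in the table used here touches that stretch, as at Vmn2r53, a vomeronasal receptor gene whose opposite strand had 21854 IP and 6269 input reads. Opposite Rmdn3, a microtubule regulator gene (chr2:119137001-119137075), the unnamed strand had 67898 IP and 14199 input reads, against 2470 IP and 737 input reads. Opposite Nrarp, a feedback inhibitor of Notch signalling, 1 minus-strand peak of 65494 IP and 29722 input reads met 2 Nrarp peaks, of 4828 and 1580 IP and 825 and 1265 input reads. The unnamed strand opposite Tmem267 had 27479 IP and 9092 input reads, against 370 IP and 54 input reads.

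**Figure D5:**
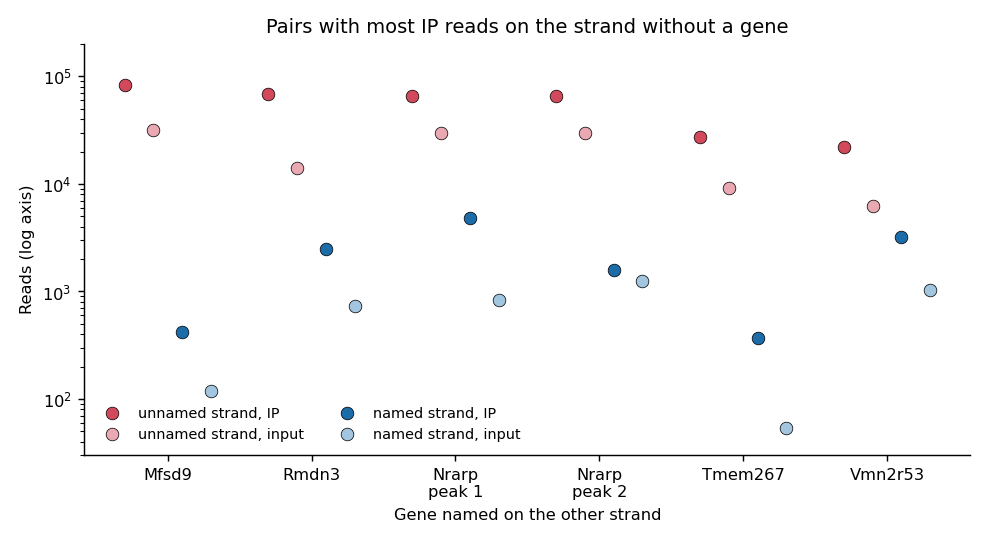
IP and input reads (log axis) on the strand without a gene name and on the named strand, for the 6 pairs with the most IP reads on the unnamed strand. Both Nrarp pairs share 1 unnamed peak. The unnamed strand lies above the named strand in IP and in input in all 6, an order that the choice by its IP reads favours. Over all 324 pairs with one name, the unnamed strand had more IP reads in 140 (43.2%).

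The widest gaps in IP reads between strands, here as plain ratios of the counts, were reached at Pdgfa, a platelet-derived growth factor gene (672-fold), Itpkb, an inositol trisphosphate kinase gene (577-fold), Cherp and 1700030K09Rik (503-fold), an unnamed locus on chromosome 12 (469-fold) and Rnf146, a ubiquitin ligase gene (467-fold). At Pdgfa the unnamed plus strand had 126 IP and 42 input reads and the Pdgfa strand 84712 IP and 28164 input reads, a ratio of IP to input near 3 on both strands. At Rnf146 the unnamed strand had 54 IP and 32 input reads and the Rnf146 strand 25219 IP and 4691 input reads, and the ratio was 3.19 times as high on the Rnf146 strand (1.99 to 5.03).

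Of 60 genes listed at loci known for antisense or convergent transcription, 57 were found among the RefSeq genes used here. Of the list, 27 had a peak on their own strand and 7 held a member. Members made up 6.88% of all peaks. For this list, and for the m6A genes and cell markers below, the share of all genes with a peak that hold a member was not computed. Nkx2-2os had 535 IP and 179 input reads, against 68 IP and 44 input reads on the strand of Nkx2-2, a homeobox gene of ventral neural tube and hypothalamus (chr2:147184083-147184357), a ratio 1.93 times as high for the antisense RNA (1.24 to 2.98). Opposite Six3os1, the antisense RNA of the forebrain gene Six3, the unnamed strand had 837 IP and 304 input reads and the Six3os1 strand 1302 IP and 426 input reads. Opposite Zeb2, a neural crest and neural zinc-finger gene, the unnamed strand had 2598 IP and 1284 input reads and the Zeb2 strand 3024 IP and 1235 input reads. Of these 3 loci, the IP reads of the strands were closest at Zeb2 and farthest apart at Nkx2-2.

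At Gnas, the imprinted gene of a stimulatory G protein, the gap was wider than at those 3, with 86 IP and 49 input reads on the unnamed strand and 14710 IP and 9274 input reads on the Gnas strand. The plain IP-to-input ratio was higher on the unnamed strand. In the authors' deposited table the log2 fold change was lower there, 3.24 against 3.41 on the Gnas strand. Bace1, the beta-secretase gene, had 1 peak of 10748 IP and 3983 input reads that met 4 peaks on the strand of Rnf214, of 2858, 215, 36 and 31 IP and 1218, 96, 0 and 6 input reads. Opposite Malat1, an abundant nuclear lncRNA, the unnamed strand had 34 IP and 10 input reads and the Malat1 strand 178 IP and 36 input reads.

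Of 19 genes that write, erase or read m6A, or set related marks, 17 had a peak on their own strand and 1 held a member. That gene was Mettl5, the methyltransferase of 18S ribosomal RNA, which converges with Ssb, the gene of the La protein (chr2:69871198-69871297). The Mettl5 strand had 1114 IP and 388 input reads and the Ssb strand 449 IP and 310 input reads, a ratio of 1.98 (1.64 to 2.40).

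Markers of the labelled cells were partly present in the peak list: 5 of 9 neural progenitor genes and 4 of 6 hypothalamic genes had a peak on their own strand, as did 3 of 5 neuronal, 2 of 4 astrocyte and 3 of 4 oligodendrocyte-lineage genes, and none of 5 microglia and vessel genes. Among them only Notch1 and Olig1 held members. The lncRNA 0610009E02Rik on the plus strand had 112 IP and 23 input reads in one peak, against 4834 IP and 1737 input reads on the strand of Notch1, a receptor that keeps progenitors undifferentiated, and 206 IP and 48 input reads in another, against 487 IP and 407 input reads. At Olig1 the unnamed strand had 810 IP and 607 input reads, against 20324 IP and 15771 input reads on the Olig1 strand. A peak list shows enriched transcripts only, so a marker without a peak is not shown to be unexpressed.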

How the data were processed

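Analysed were 1 peak list and its table of the same 21195 peaks from 10 libraries. The deposited counts are whole reads per peak, 1 IP and 1 input column, pooled in a way the file headers do not give: summing and averaging cannot be told apart, nor which genotypes entered. The exact intervals treat them as read counts and would be off in width for means. The deposited log2 fold change, p-value, adjusted p-value and score are the authors' own, per the file headers, and no source used here states their test or normalization. STAR 2.5.2a, Trimmomatic 0.32, bcl2fastq 2.17.1.14 and the builds GRCm38.p6 and GRCh38.p13 stand in the submitters' processing notes, with no role given.

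Pairs, layouts and gene names were computed with Python 3.11.15, pandas 2.3.3 and numpy 2.4.6, and exact conditional intervals of the ratio of ratios with R 4.3.3. Peak coordinates count from 1 and were taken as GRCm38.p6, the mouse build in those notes. Gene spans are RefSeq's, and strands come from its promoter table for 27025 genes and from same-strand peaks for 1697, which was chosen after seeing the data. Genes of chromosome 18 and the mitochondrial genome are not in that table. Exons and a genome were not used here. A pseudocount of 0.5 was added to counts for medians and shares of folds, and the folds of single named pairs are plain ratios of the counts.

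Pairs were named by rule: the 12 convergent, 4 divergent and 6 nested pairs with the most IP reads on the weaker strand, the 6 with the most on an unnamed strand, the 5 largest and 5 smallest differences in deposited log2 fold change (at least 50 reads throughout) and IP folds, the 3 longest overlaps, the 3 nearest the length limit, and members in the gene lists. Others are said to be chosen later. Members and lists were chosen with earlier results of these data known. The planned test of knockout against control was not run, since no column names a library. Pair finding and intervals were tested on simulated data.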

Additional observations from a re-analysis of the deposited data

How the results depend on the processing

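Of 112 values recomputed under alternatives, 96 kept their direction and lay within their counting or order-statistic interval, or within 1.5 times for counts. Those intervals treat pairs and peaks as independent, which they are not, since pairs share peaks and genes. They serve only as a yardstick for the size of a change. Some alternatives could hardly move a value: leaving out the mitochondrial genome removed 1 of 771 pairs, and leaving out pairs of nearly equal counts removed 14. The number of values that held is therefore no measure of robustness. No paired analysis was possible because the deposited columns name no library, and leaving out replicates was not run for the same reason. The median difference in log2 IP over input reads, 0.11 with strands ordered by IP reads, was -0.087 with strands ordered by input reads, and the cause was not tested. With at least 50 IP and input reads on both strands, the convergent share of peaks was 34.1%, the median log2 fold change of members in the authors' deposited table was at 2.79, its difference between the strands 0.22, the difference in log2 IP over input 0.23, the IP fold 3.28, the input fold 2.97 and the share with 10-fold more IP 24.7%. With only peaks of a log2 fold change of at least 2 in the authors' deposited table, the median was 3.07, the difference between strands 0.0071, its absolute size 0.51 and the difference in log2 IP over input 0.014. That cut removes low values of the same column, so by itself it favours a higher median and smaller differences between strands. At a maximum length of 2000 bases the median log2 fold change in the authors' deposited table was 2.78, and with an overlap of at least 50% of the shorter peak the convergent share of peaks was 26.0%. With gene strands from the promoter table alone, chosen after seeing the data, 22.8% of pairs lay in convergent genes and 49.9% had one name. The number of members ran from 997 (2000 bases) to 1900 (10000 bases), and of pairs from 514 to 1031. Low counts on the weaker strand and the missing replicates limit every single-pair difference.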
